A study of Mus musculus with 249 samples.

Results

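The region described here is the mouse major histocompatibility complex (MHC, called H2 in the mouse) with its flanks, on chromosome 17 from 33.8 to 38 Mb of the assembly mm9, together with the window that holds Pou5f1. Its members were all windows of 40 kb between these coordinates, which gave 105 of the 2382 windows of chromosome 17 and of the 68162 windows listed in all. The rule used coordinates only. The data were 249 multiplex genome architecture mapping (GAM) libraries of 46C, a mouse embryonic stem (ES) cell line of strain 129/Ola that carries a GFP reporter knocked into Sox1. In GAM, thin cryosections of fixed cells are cut, slices of nuclei (nuclear profiles) from different cells are picked by laser, and loci that lie close together in the nucleus fall into the same slice more often than distant loci. Each tube was titled as holding 4 profiles, and a window was scored 1 or 0 in each library.

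All libraries came from the same line, grown with LIF and serum and replated in serum-free ES medium before harvest. No group carried a genetic change that the others lacked. The libraries fell into 11 experiments on the protocol. Amplification reagent volumes differed between protocol_a (10 libraries), protocol_b (11) and protocol_c (10), proteinase K volume between 1 µl (5) and 2 µl (6), PCR cycle number between 20 (4), 23 (5) and 25 (3), and kit between large (11) and small (12). Libraries were frozen after the lysis incubation (10) or left unfrozen (11), frozen early (12) or late (11), and sections were stained with cresyl violet (16) or unstained (10). Unstained libraries of the propidium iodide (20) and eosin (18) tests, the SYBR Gold test (10) and a full collection (54) had 1 arm each. The SYBR Gold libraries are titled unstained, whereas their protocol describes staining with that dye. The libraries are separate tubes, and nothing in the labels places them in separate cultures, so errors below measure the spread between libraries. The table holds DNA calls and no expression, so markers of the cell type could not be checked.

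Pou5f1 encodes Oct4, the POU-domain transcription factor that keeps ES cells pluripotent. It lies inside the MHC, a cluster that is conserved among mammals. The class I genes H2-K, H2-D, H2-Q, H2-T and H2-M encode molecules of the kind that shows peptides to CD8 T cells, class II genes encode those that show peptides to CD4 T cells, and the class III stretch holds complement, cytokine and many unrelated genes. Between the class I genes lie housekeeping genes at conserved positions, called framework genes. The region is known for its gene density, and 219 coding genes started in it, 52.1 per Mb against 9.57 per Mb on the rest of chromosome 17. It held 20.1% of the coding gene starts of the chromosome in 4.41% of its windows. Mean GC content was 45.7% in the region and 42.6% outside.

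Pou5f1 (ENSMUSG00000024406.9) spans chr17:35642982-35647721 on the plus strand in GENCODE vM1, so that its start lies near the left edge of the window chr17:35640001-35680000. That window also holds Tcf19, Cchcr1 and Psors1c2, and its GC content was 51.1%. The 250 bases before the start (mm9, chr17:35642732-35642981, plus strand, exonic sequence of Pou5f1 not included) are shown as the promoter at which the window is placed. Distances in the text run from window to window, and the plots of detection and insulation count from the start of the gene. Capitals mark GGGCGG, the core of a GC box, and AGGTCA, a nuclear receptor half-site, both of which lie in the part known as the proximal promoter.

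Pou5f1 promoter: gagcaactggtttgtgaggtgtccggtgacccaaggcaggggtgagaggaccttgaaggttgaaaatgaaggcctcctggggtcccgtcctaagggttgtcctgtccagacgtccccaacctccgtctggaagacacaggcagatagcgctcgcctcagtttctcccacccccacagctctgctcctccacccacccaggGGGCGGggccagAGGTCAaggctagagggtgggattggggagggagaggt

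GGGCGG lay 50 to 45 bases and AGGTCA 38 to 33 bases before the start, and neither overlapped the other. Searched on both strands in the same stretch of 22362 coding genes, GGGCGG was present in 39.6%, AGGTCA in 12.5% and both in 3.63%. Among 218 genes of the region the shares were 28.4%, 16.1% and 2.75%. These matches are letters in a window of sequence, and GAM at 40 kb does not resolve them.

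How often the region was caught was examined first, since linkage is computed from detection. All 105 windows were positive in at least 25 libraries, the minimum used for linkage, whereas 4.74% of the windows on the rest of the chromosome were not. The median window of the region was positive in 57 libraries and the median window outside in 51. Per library, 22.9% ± 21.03 (SD, n = 249) of the region windows were positive against 19.9% ± 13.0 of the other chromosome 17 windows. The difference was 3.08 ± 1.01 percentage points (SE; two-sided sign-flip permutation test, 100000 resamples, p = 0.0026). In 127 of 249 libraries it was above 0. The median difference was 0.374 points (p = 0.605), and against windows of the same 5 GC classes the mean difference was 1.36 points (p = 0.176). Neither of these values passed the threshold of 0.05.

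The Pou5f1 window was positive in 58 libraries, 23.3% of all (95% Wilson interval 18.5 to 28.9%, counting error only). The window on its left, which overlaps H2-Q10, was positive in 67 and the one on its right, with Cdsn, in 60. In the 58 libraries with Pou5f1, the run of adjacent positive windows through it had a median length of 6 windows, or 240 kb, and the longest covered 2440 kb. In 4 libraries the Pou5f1 window stood alone.

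The most often detected window of the region, chr17:36600001-36640000, was positive in 122 libraries and holds no coding gene. Next came chr17:37120001-37160000 (77 libraries), with the non-classical class I gene H2-M5 and Zfp57, a factor that guards imprinted methylation, and chr17:37160001-37200000 (75), with Gabbr1, a subunit of the GABA-B receptor, and the myelin gene Mog. The windows chr17:36000001-36040000, with Nrm and Dhx16, and chr17:36200001-36240000, with no coding gene, were also positive in 75. The least detected was chr17:36280001-36320000 (29 libraries; 2410017I17Rik and Gm8909). The window of Tnxb and C4b, chr17:34840001-34880000, and that of H2-M10.5, chr17:36880001-36920000, were positive in 40 libraries each. C4b and Tnxb lie in a stretch known to be duplicated, and reads from near-identical class I genes may also be placed in more than 1 copy, so the calls of such windows are less certain. No other window lay outside these values, as the plot of detection along the region shows.

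**Figure D1:**
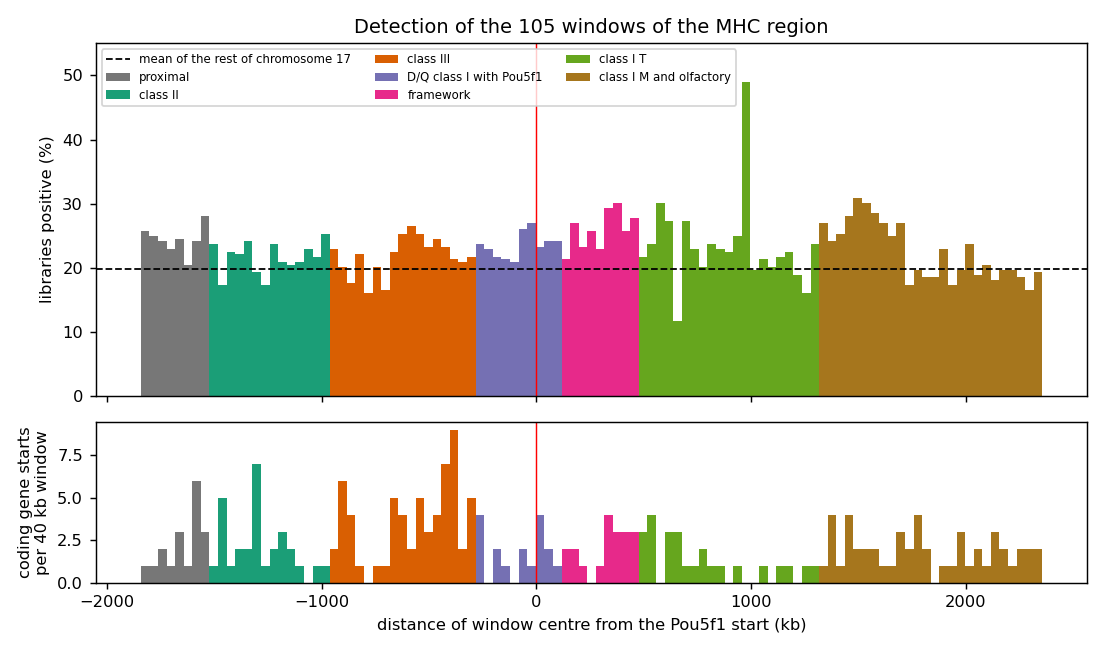
The upper panel shows the percent of 249 libraries positive in each 40 kb window against its distance from the Pou5f1 start in kb, coloured by segment, with the mean of the rest of chromosome 17 (19.9%) as a dashed line, and the lower panel shows coding gene starts per window. The red line marks Pou5f1, and the single tall bar is the gene-free window positive in 122 libraries.

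The region was caught in all experiments. The Pou5f1 window was positive in 9.52% (2 of 21 libraries, freezing after incubation) to 38.5% (10 of 26, cresyl violet test) of the libraries of an experiment. In order it was positive in 11.1% of eosin, 13.0% of kit, 18.2% of proteinase K, 19.4% of reagent volume, 20.0% of propidium iodide, 25.0% of PCR cycle, 27.8% of full collection, 30.0% of SYBR Gold and 34.8% of early freezing libraries. Taken relative to the rest of chromosome 17, no difference between the experiments was detected beyond the spread between libraries (permutation test of F over 11 experiments, F = 0.953, p = 0.486). For the region minus the rest of the chromosome the test gave F = 1.05 (p = 0.404), with means from -5.89 ± 15.8 points (SD) in the PCR cycle libraries to 8.76 ± 17.9 in the SYBR Gold libraries. The share of region windows itself averaged 14.4% ± 19.3 in the proteinase K libraries, the lowest, and 30.4% ± 26.04 in the early freezing libraries, the highest. Of 11 contrasts between arms of an experiment, 0 passed an adjusted p of 0.05, and 0 had an unadjusted p under 0.05. The largest was between 20 and 23 PCR cycles. The region minus the rest of the chromosome averaged 5.81 ± 11.2 points (SD, n = 4) at 20 cycles and -11.8 ± 16.5 (n = 5) at 23, a difference of 17.6 (exact two-sided permutation test, p = 0.119, adjusted 0.786). The PCR cycle contrasts had only 126, 35 and 56 arrangements of their libraries, too few for any of them to pass the adjusted threshold alone. They therefore cannot tell whether cycle number mattered. All libraries were pooled for linkage.

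Linkage within the region was then compared with pairs of equal distance on the rest of chromosome 17. Linkage is given as D′, the frequency of finding both windows together minus the product of their detection frequencies, divided by the largest size this difference can take, so that 1 is the strongest possible linkage and 0 is none. Neighbouring windows lay close to the rest of the chromosome, with a mean D′ of 0.625 ± 0.014 (SE over libraries) at 40 kb in the region and 0.621 ± 0.0087 outside. At larger distances the region lay lower. From 40 to 400 kb the mean D′ was 0.465 in the region and 0.487 outside, a difference of -0.0225 ± 0.0139. From 440 kb to 1 Mb the means were 0.309 and 0.357, a difference of -0.0475 ± 0.0193 (95% interval -0.0853 to -0.00978). Above 1 Mb and up to 2 Mb the difference was -0.0442 ± 0.0234, and above 2 Mb and up to 4 Mb it was -0.0409 ± 0.0249. Linkage in the region was below that of the reference in all 4 bands, but none passed the adjusted threshold (two-sided normal test over libraries, adjusted p = 0.106, 0.0545, 0.106 and 0.106). The band from 440 kb to 1 Mb lay close to the threshold (unadjusted p = 0.0136) and fell on either side of it with the reference chosen. It passed against reference windows of like GC content (-0.0548, adjusted p = 0.0242) and did not against reference windows detected as often as those of the region (-0.0425, adjusted p = 0.116). It also passed without 1 unstained library of the cresyl violet test (replicate 7; -0.0528, adjusted p = 0.0207), in which 82.9% of the region windows were positive. The difference was smallest in D′ without the kit experiment (-0.0309, adjusted p = 0.367), where it was -0.0113 from 40 to 400 kb (adjusted p = 0.421). With D, the same difference before division by its largest possible size, no band passed (adjusted p = 0.402 from 440 kb to 1 Mb and 0.920 from 40 to 400 kb). Single libraries other than the most influential ones were not left out.

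**Figure D2:**
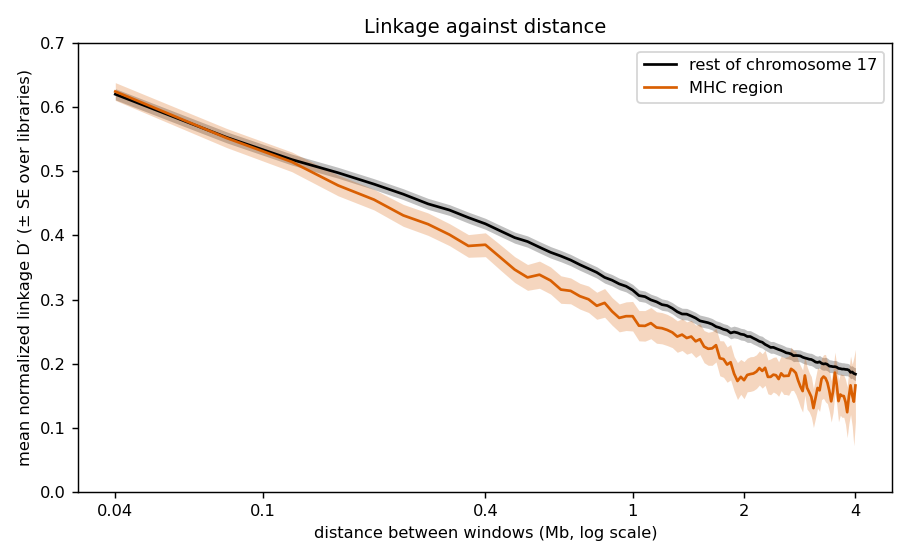
The plot gives mean D′ against distance between windows in Mb on a log scale, for the MHC region (orange) and the rest of chromosome 17 (black), with bands of 1 SE over libraries. The curves coincide at 40 kb (0.625 and 0.621), and the orange curve lies lower from 440 kb to 1 Mb (0.309 against 0.357).

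Chromosome 17 was also cut into 21 stretches of the same length as the region. Counted from the highest linkage, the region ranked 19, 20, 19 and 17 in the 4 bands in order of distance, so that other stretches were as low or lower in each. Its mean insulation score was the lowest of the 21, at 0.374, but the next was close at 0.378. It also held the most coding gene starts, 219 against 132 in the next. Across the 21 stretches, the correlation of linkage with gene starts was near 0 from 40 to 400 kb (Pearson's r = -0.15, Spearman's rho = 0.060) and negative in the other bands, at r = -0.65 and rho = -0.62 from 440 kb to 1 Mb, r = -0.60 and rho = -0.67 up to 2 Mb, and r = -0.55 and rho = -0.71 up to 4 Mb. Gene starts also correlated with detection, the median number of positive libraries per window (r = 0.57, rho = 0.66). Which of these goes with linkage was not tested. The correlations describe stretches that share the same libraries, and the region is the extreme point in gene starts.

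To see where in the region linkage was low, each pair was given a z-score, its D′ minus the mean of all chromosome 17 pairs at that distance, over their SD. Of 5450 pairs in the region, 26.4% had a z-score below -1, against 15.2% of all 219215 chromosome 17 pairs, and 7.25% had one above 1, against 15.4%. The region was then divided at fixed genes into 7 segments. These were the proximal part before H2-K1 (8 windows), class II (14), class III (17), D/Q class I with Pou5f1 (10), the framework genes from Vars2 (9), class I T (21) and class I M with olfactory receptors (26). By these borders the class I T segment also holds the listed H2-M10 genes, H2-M11, H2-M9 and H2-M1, and the class I M segment holds H2-M5, H2-M3 and H2-M2.

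Low linkage was unevenly spread. It was lowest between the proximal part and class II, with a mean z-score of -2.04 ± 0.37 (SE over libraries, 111 pairs), where only 5 pairs lay above the mean of their distance. Proximal with class III followed (-1.17 ± 0.33, 136 pairs). Class III with the D/Q segment had a mean of -0.97 ± 0.27 (169 pairs, 20 above), and pairs inside the D/Q segment also had -0.97 ± 0.37 (36 pairs). Pairs inside class II (0.17 ± 0.35), the framework genes (0.29 ± 0.40), class I T (0.20 ± 0.34) and the M and olfactory segment (-0.12 ± 0.30) lay within 1 SE of the chromosome mean. Pairs inside the proximal part (-0.88 ± 0.45, 1 of 21 above) and inside class III (-0.54 ± 0.33, 34 of 120 above) lay lower. Linkage between class I T and the M and olfactory segment was 0.21 ± 0.30. Class III with class I T (-0.91 ± 0.36) and with the framework genes (-0.88 ± 0.38) also lay below the mean. Without the proximal windows, an alternative chosen after seeing the data, the difference from 440 kb to 1 Mb was -0.0356 (adjusted p = 0.126) and that from 40 to 400 kb was -0.0110 (adjusted p = 0.446), while those up to 2 Mb and up to 4 Mb were -0.0411 and -0.0523 (adjusted p = 0.126 for both).

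**Figure D3:**
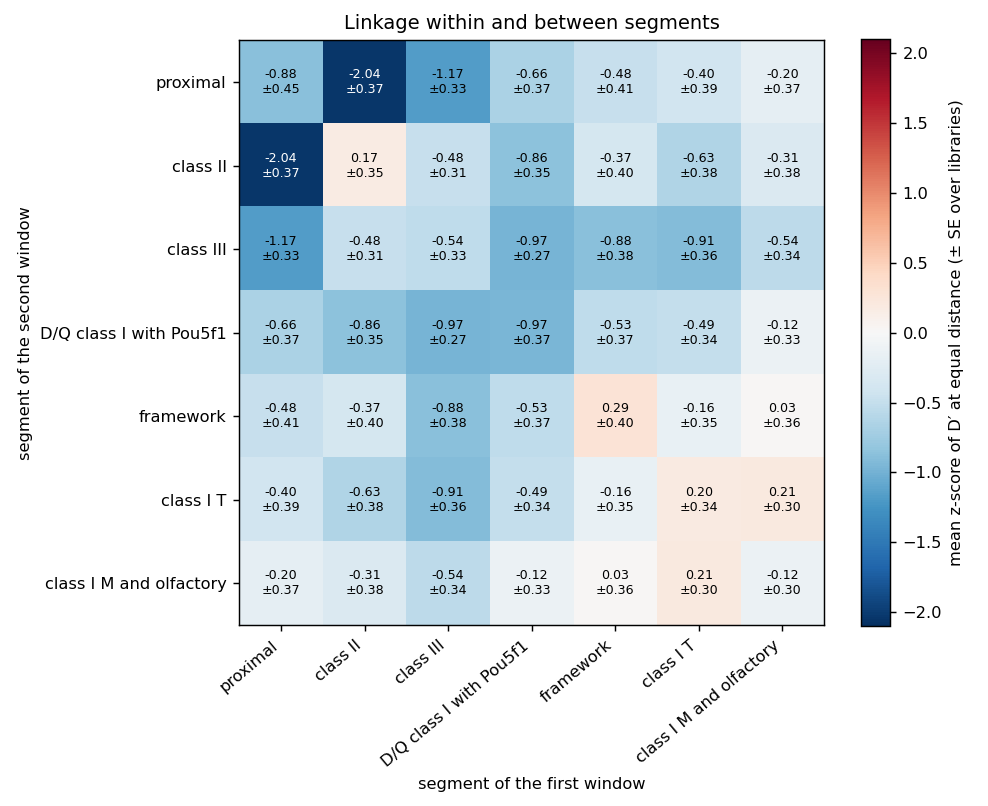
Each square gives the mean z-score of D′ at equal distance for pairs within (diagonal) and between segments of the region, with its SE over libraries. Blue is below and red above the mean of chromosome 17, and the darkest square joins the proximal part with class II at -2.04 ± 0.37.

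Gene lists were described by their windows. Mean z-scores with all partners averaged -0.79 over the 7 windows of the 13 class II and antigen processing genes, a group that includes H2-Aa, H2-Ab1 and the peptide transporters Tap1 and Tap2. They averaged -0.73 over the 13 windows of 17 class III genes, among them Tnf, C4b and the histone methyltransferase gene Ehmt2. They were -0.52 over 9 windows of the 8 class I K, D and Q genes found of 9 listed. The 9 framework windows averaged -0.23, the 16 windows of H2-T and H2-M genes averaged -0.11, the 2 windows of Pou5f1 and its neighbours averaged -0.61, and the 19 windows of the 33 olfactory receptor genes of the region averaged -0.02. No window of the class II, class III or K, D and Q lists had a mean above 0, nor did those of Pou5f1 and its neighbours, whereas 1 of the 9 framework, 6 of the 16 H2-T and H2-M and 11 of the 19 olfactory windows did. Over all windows of chromosome 17 the share above 0 was 50.4%, and over the region it was 24.8%.

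The insulation score of a window was the average D′ between the 400 kb on its left and the 400 kb on its right, so that a low score marks a place over which few contacts were found. Domain boundaries were local minima of at least 0.5 SD prominence. The region had a mean score of 0.374 and the rest of the chromosome 0.414, a difference of -0.0394 ± 0.0162 (SE over libraries). It was uneven, with segment means from 0.274 in the proximal part to 0.420 in class I T. Scores below the chromosome mean passed an adjusted p of 0.05 in 0.668% of the 2246 chromosome 17 windows tested, that is in 15, and 11 of these 15 lay in the region. Of the 11, 10 were adjacent windows in chr17:33880001-34280000, whose squares overlap and which are 1 feature. The other was chr17:35280001-35320000, which holds Bag6, Prrc2a and Aif1, at an insulation of 0.319 (adjusted p = 0.047). Since the test also made calls in some simulated sets with no boundary planted, a call this close to the threshold is uncertain.

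The feature was centred on chr17:34080001-34120000, which holds Wdr46, the ribosomal protein gene Rps18, Vps52, B3galt4 and H2-K2, which the annotation calls a pseudogene, and is next to the window of H2-K1, a classical class I gene. Its insulation was 0.215, which differed from the chromosome mean of 0.412 by -0.197 ± 0.036 (SE). This was the lowest of all scored windows of chromosome 17 and rank 16 of 58505 autosomal windows (adjusted p = 3.66e-05, normal test over libraries, adjusted over the windows of chromosome 17). Its prominence of 7.36 SD ranked 1 of the 107 boundaries of the chromosome and 2 of 2546 on all autosomes. Whether the sequence of the 46C line follows the order of mm9 at this place cannot be told from the table. A boundary lay within 1 window of it under all 17 alternative settings or subsets of libraries tried for insulation. The window itself was positive in 70 libraries, but its score rests on the windows beside it, such as chr17:34160001-34200000 with 43. Whether detection contributed to the low score was not tested. Windows 160 kb apart on the 2 sides of chr17:34080001-34120000 were both positive in 17 libraries, only the left in 34 and only the right in 26. Both were thus positive in 22.1% of libraries with either, whereas the median of 2247 such pairs on chromosome 17 was 40%. Within the flanks of 400 kb the mean D′ was 0.501 on the left and 0.520 on the right, against 0.523 on average over the chromosome.

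**Figure D4:**
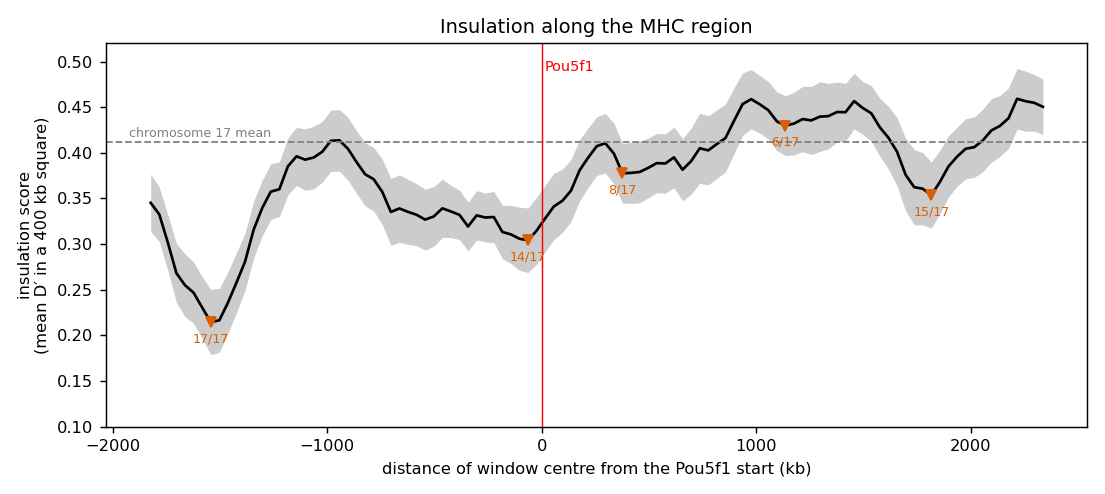
The line gives the insulation score (mean D′ in a 400 kb square) of each window against its distance from the Pou5f1 start in kb, with a band of 1 SE over libraries of its difference from the chromosome mean, and triangles mark boundaries with the number of 17 alternatives that hold them. The deepest minimum, 0.215, lies beside H2-K1, and Pou5f1 lies beside a shallower one at H2-Q6 and H2-Q7.

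The Pou5f1 window had an insulation of 0.328, a difference of -0.0835 ± 0.0363 from the chromosome mean, and 3.70% of the windows of chromosome 17 were lower. This difference did not pass the test over all windows (delta-method normal test with Benjamini-Hochberg adjustment, adjusted p = 0.274; unadjusted p = 0.0214). The nearest boundary was 80 kb to its left, at chr17:35560001-35600000 with the class I genes H2-Q6 and H2-Q7. It had an insulation of 0.304 (adjusted p = 0.0837) and was found under 14 of 17 alternatives. The next to the right, 360 kb away at chr17:36000001-36040000 among the framework genes Nrm, Dhx16 and Atat1, had an insulation of 0.378 and was found under 8. Between these minima lay a stretch of 440 kb, with Pou5f1 near its left end. Both minima depended on the setting, the right one more so. Neither passed the test over all windows (delta-method normal test, adjusted p = 0.0837 and 0.704), so the borders of this domain are uncertain. The remaining boundaries were at H2-M9 (chr17:36760001-36800000, insulation 0.430, 6 of 17) and at Olfr102 and Olfr103 (chr17:37440001-37480000, 0.354, 15 of 17). The region had 1.19 boundaries per Mb and the rest of the chromosome 1.12.

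Seen from Pou5f1, linkage differed between the sides in value. Its left neighbour shared 46 libraries with it (D′ = 0.717 ± 0.079 SE) and its right neighbour 42 (0.637 ± 0.079), against a mean of 0.621 at that distance. At 120 kb the left partner, which holds the end of H2-Q4, had a D′ of 0.323 ± 0.083, while the right partner, the start of the framework genes at Vars2, had 0.508 ± 0.083, with a mean of 0.518 at that distance. The window with H2-Q2 and the start of H2-Q4, at 160 kb, had 0.360 ± 0.083. Both of these left partners lie across the boundary at H2-Q6 and H2-Q7. The 3 other D/Q windows at 200 kb or more averaged a z-score of -1.82 ± 0.64. In the class III stretch the D′ with Pou5f1 was 0.324 ± 0.084 at Tnf, Ltb and Lta, 0.284 ± 0.085 at the heat shock genes Hspa1a and Hspa1b, 0.261 ± 0.085 at Ehmt2 and C2, and 0.114 ± 0.085 at C4b. Each of the 17 class III windows lay below the mean of its distance, with a mean z-score of -1.54 ± 0.48 (SE; 95% interval -2.48 to -0.60). All 14 class II windows also lay below it, but the 95% interval of their mean of -0.85 ± 0.56 included 0 (-1.95 to 0.25). Low values were common to the D/Q segment and not particular to Pou5f1. Over all D/Q windows, Pou5f1 included, 11.8% of pairs with class III and 8.57% of pairs with class II lay above the mean of their distance. On the right, the 7 framework windows from 200 kb averaged -0.17 ± 0.55, and 3 of the 7 lay above the mean of their distance. The window of Dhx16 and Atat1 had a D′ of 0.531 ± 0.085 and that of Flot1, Tubb5 and Mdc1 0.463 ± 0.084, against 0.426 and 0.438 at their distances. Below the mean were those of Ddr1 (0.371, z-score -1.20), Ier3 (0.382, -0.71) and Abcf1 (0.356, -0.53).

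From 200 kb to 1 Mb, partners on the left averaged -1.57 ± 0.46 and partners on the right -0.60 ± 0.46. Of 2117 chromosome 17 windows, 0.661% had a lower mean on the left, 16.5% a lower mean on the right and 10.4% a lower difference of left minus right. Up to 4 Mb these shares were 4.31%, 30.9% and 12.3%. The difference between the sides was -0.96 ± 0.55 with a 95% interval of -2.04 to 0.11, so an asymmetry was not established at this number of libraries. From 200 kb to 4 Mb, 39 of 192 partners had a D′ above the mean of their distance, 7 of 96 on the left and 32 of 96 on the right. Partners share the Pou5f1 window and are not independent of each other.

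**Figure D5:**
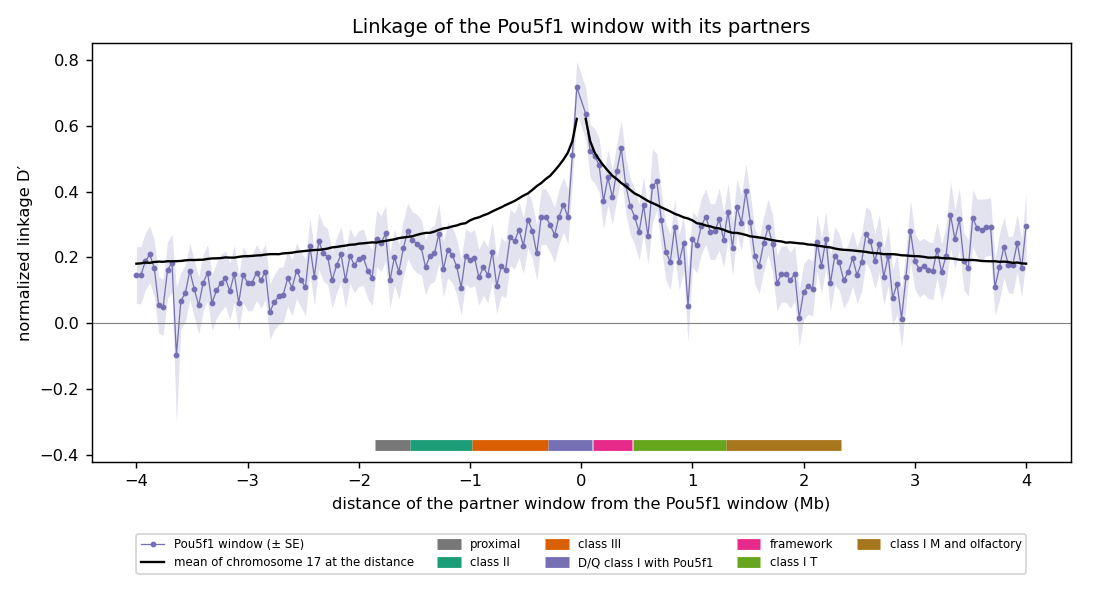
The purple line gives D′ (± SE over libraries) between the Pou5f1 window and each partner up to 4 Mb away, against distance in Mb, the black lines give the mean of chromosome 17 at that distance, and the coloured bar shows the segments. On the left the purple line lies under the black one over class III, and on the right it follows it over the framework genes.

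The co-detections behind these values were also summed per library, as shares that are not matched for distance and so add no separate evidence. In the 58 libraries with the Pou5f1 window, 57.9% ± 31.4 (SD) of the framework windows and 55.9% ± 26.97 of the other D/Q windows were positive. The shares were 37.5% ± 26.7 for class III, 35.7% ± 35.5 for class II and 40.7% ± 36.2 for the proximal part on the left, and 42.2% ± 32.4 for class I T and 36.2% ± 29.1 for the M and olfactory segment on the right. In the 191 libraries without it, the segments had means of 13.7 to 19.4%. Chromosome 17 outside the region was also positive more often in the libraries with the Pou5f1 window, at 25.5% ± 12.03 against 18.1% ± 12.8 of its windows.

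Among partners from 200 kb to 4 Mb away, the highest z-scores with Pou5f1 were 1.47, 1.40, 1.36 and 1.28 at gene-free windows 3320, 3520, 3400 and 4000 kb to the right and 1.38 at the window of H2-M5, Zfp57 and Mog. The last had a D′ of 0.401 ± 0.084, and 34 libraries held both windows. The lowest were -3.04 at a gene-free window 3640 kb to the left, -2.74 at the most detected window of the region (D′ = 0.053 ± 0.112, 30 libraries with both) and -2.42 at C4b (16 with both). None of the 200 pairs of the Pou5f1 window up to 4 Mb passed the test over all chromosome 17 pairs, in which 0.00684% of pairs were called stronger and 0.00182% weaker. The lowest adjusted p was 0.779, and at an unadjusted p under 0.05 there were 0 stronger and 13 weaker pairs of 200. The weaker pairs were 6.5%, against 2.6% of all chromosome 17 pairs and 6.59% of pairs inside the region. The share of stronger pairs was 3.08% on chromosome 17 and 1.17% inside the region. The share of weaker pairs at Pou5f1 was thus close to that of the region around it.

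Inside the region 2 pairs of the 5450 passed that test. On simulated libraries with no pair planted the same test called more pairs than on chromosome 17 here, so these 2 are given as extremes and not as detected contacts. The stronger joined chr17:36280001-36320000 (2410017I17Rik, Gm8909) with chr17:37320001-37360000 (Ubd, Olfr94, Olfr95), 26 windows apart, with a D′ of 0.764 ± 0.094 against 0.304 at that distance (adjusted p = 0.019). It rests on the least detected window of the region, 24 of whose 29 libraries also held the partner, and the pair left the threshold without the full collection, where its excess of D′ over the mean of its distance was 0.468 in place of 0.460 (adjusted p = 0.0677). With phi, the plain correlation of the 2 windows, the excess was 0.186 (adjusted p = 0.461). The same window gave the next highest z-scores, 3.87 with the window of Nrm and Dhx16 and 3.11 with that of Abcf1 and Gnl1, and H2-Q2 and H2-Q4 with H2-M5 had 2.96. None of these 3 passed (adjusted p = 0.261, 0.713 and 0.555). The weaker pair joined chr17:33840001-33880000 (March2) with chr17:34240001-34280000 (Brd2, H2-DMa) across the boundary beside H2-K1, with a D′ of 0.0074 ± 0.085 against 0.417 at 400 kb (adjusted p = 0.0249). Its difference from the mean of its distance was -0.409. It left the threshold without the full collection, where the difference was -0.488 and its SE rose from 0.085 to 0.226 (adjusted p = 0.997), and passed with a minimum of 40 libraries (-0.412, adjusted p = 0.0204) and with phi (-0.369, adjusted p = 0.0025). The lowest z-scores were -5.33, between the window of Cyp21a1 and a gene-free window 1720 kb away, and -4.76, between the window of Prrt1 and Atf6b and that of Olfr111. Neither passed (adjusted p = 0.879 for both).

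Co-detection of the Pou5f1 window with windows of other chromosomes was tested last, within 5 classes of library coverage. Of 59168 windows, 0 passed an adjusted p of 0.05 (Cochran-Mantel-Haenszel test, lowest adjusted p = 0.562), and 2817, or 4.76%, had an unadjusted p under 0.05. Windows of 17 of 18 listed pluripotency genes were found. The highest odds ratio among them was 2.81 for Mycn, with 25 libraries positive for both (p = 0.00203, adjusted 0.996). Sox2 had an odds ratio of 0.599, Nanog 1.02, Klf4 1.48, Esrrb 1.72 and Zfp42 0.851, all with adjusted p of 0.996 or above.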

How the data were processed

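The authors aligned reads to mm9 (per the labels, with Bowtie2 2.1), removed duplicates and called 40 kb windows positive with GAMtools at a fixed read threshold. The deposited table holds 1 for positive and 0 otherwise, for libraries that had passed the authors' quality control, so read depth is unknown and a 0 may mean too few reads. The table matched mm9 in the length of all chromosomes, and 0 columns lacked a label. Libraries covered 3.4 to 45.2% of all windows.

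D′ was computed from windows positive in at least 25 libraries, with errors from the influence of each library (delta method, used for insulation too in place of resampled libraries) and Benjamini-Hochberg adjustment (numpy 2.4.6, scipy 1.17.1). Errors of single pairs were not allowed under the pooled error of their distance. That floor and the error and test of insulation scores were chosen after seeing the data. On simulated data with nothing planted, the pair test called more pairs than on the real chromosome 17 and the insulation test made calls in some sets, so both are liberal. The band test kept its error rate there, but with detection alike in the region and the reference, which was not so in these data. The Wilson interval covers counting error only. Windows were named by rank of z-score and detection, and the members, lists and segments were chosen with earlier results of these data known. The genes and promoters came from GENCODE vM1 on the same build.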

Additional observations from a re-analysis of the deposited data

Results flagged for a closer look

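In protocol_a of the reagent volume experiment, 1 of 10 libraries (replicate 7) stood apart from the others. Its share of positive region windows exceeded that of the rest of chromosome 17 by 40.05 percentage points, with 60.95% of the region windows positive and 20.9% outside, and its Pou5f1 window was positive. It stood apart within its own group, and libraries of other groups had larger excesses, such as 44.9 points in protocol_c replicate 6 and 49.8 points in 1 library frozen early. It was the only library that stood apart from its group in the 9 groups of 4 to 10 libraries examined, and chance alone marks about 1 group in 20.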

How the results depend on the processing

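The direction of the linkage difference was negative in all 4 bands under all 24 alternatives. These share most or all of their libraries and are not independent, and the one with errors from resampled libraries keeps the main estimate. From 440 kb to 1 Mb it passed the adjusted threshold with a minimum of 40 libraries (-0.0513), with phi, the plain correlation, in place of D′ (-0.0493), against all other autosomes (-0.0535), against like GC content (-0.0548), without the cresyl violet (-0.0520), early freezing (-0.0581), full collection (-0.0566) or SYBR Gold (-0.0501) experiments, and without the most and least detected windows (-0.0515, added after seeing the data). It was smaller without the kit experiment (-0.0309, and -0.0113 from 40 to 400 kb) and, from 40 to 400 kb, without the proximal windows (-0.0110). With D in place of D′, on its own scale, it was -0.0046 ± 0.0038 and, from 40 to 400 kb, -0.00037 ± 0.0037, and no band passed. Leaving out the most influential single libraries gave -0.0528, which passed, and -0.0431, which did not. The band from 40 to 400 kb passed with phi (-0.0307), like GC content (-0.0330) and without early freezing (-0.0275), that above 1 and up to 2 Mb with phi (-0.0422) and without early freezing (-0.0618), and that above 2 and up to 4 Mb without early freezing (-0.0557). The detection difference no longer passed as a median (0.374) or at equal GC (1.36). Called pairs inside the region were 0 stronger and 3 weaker with a minimum of 40 libraries, 0 and 7 with phi, and 0 and 0 without the full collection. On chromosome 17 the counts, stronger then weaker, were 10 and 5 with that minimum, 5 and 38 with phi, and 20 and 2 without the full collection, against 15 and 4 in the main setting. The region had 8 boundaries with a square of 200 kb or a prominence of 0.25 SD, and 3 with squares of 600 or 800 kb, a prominence of 1 SD or without the reagent volume experiment. The causes were not tested. The boundary beside H2-K1 was found under all 17 alternatives run on it, between -4.74 and -3.84 SD, and the Pou5f1 window lay between -2.12 and -1.05 SD. No paired analysis was possible because replicate numbers were given in accession order and pair no libraries. Depth could not be used, since the table keeps no reads.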
